A study of Mus musculus with 8 samples.

Results

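The genes of MHC class II antigen presentation were compared between red cell precursors of mouse bone marrow with and without KAP1. The 7 genes are H2-Aa, H2-Ab1 and H2-Eb1, which encode chains of the peptide-presenting molecules, Cd74, which encodes the invariant chain, H2-DMa and H2-DMb1, which encode the peptide loading molecule, and Ciita, which encodes the transactivator of the others. They were chosen by symbol, as every probe that the array annotation assigns to one of them, and are 7 of the 19057 named genes on the array. They hold 13 of its 45281 probes. The lowest deposited value, an intensity of 20, is called the floor here, and testing required values above it on at least 4 of the 8 arrays. That left 12 of the 13 probes, among 12259 tested probes in all, and each of the 7 genes kept at least 1.

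The samples were RNA from cells sorted from bone marrow as CD71+Ter119+, measured on Illumina bead arrays. CD71 is the transferrin receptor and Ter119 an erythroid surface marker. The 4 samples A4, A8, A11 and A13 are labelled as KAP1 knockout (KO), and the 4 samples C4, C6, C8 and C9 as wild-type (WT). The mice were 8 to 12 weeks old and of mixed strain, and the labels of all 8 samples, WT included, carry the alleles Kap-flox and stopfloxYFP. The Cre line is not given in the sources used here, nor is it said that each sample came from its own animal, so the p-values measure only the spread between these samples, which may be technical.

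Class II molecules are pairs of an alpha and a beta chain that carry peptides from endosomes to the cell surface, where CD4+ T cells read them. The invariant chain escorts new pairs to the endosome, H2-DM exchanges its last fragment for a peptide, and H2-O restrains H2-DM. CIITA does not bind DNA itself and acts through factors bound at the X and Y boxes shared by class II promoters. In bone marrow the pathway is best known from B cells, dendritic cells and macrophages.

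The shared promoter layout can be seen in the sequences of 3 of these genes and of both H2-O chains. Promoters were taken from RefSeq on assembly GRCm38.p6, from 250 bases before to 50 bases after each transcription start, for 4 of the 7 genes, namely H2-Aa, H2-Eb1, H2-DMa and H2-DMb1. Each line holds the 2 boxes with 15 bases on either side, on the strand of the gene and 5′ to 3′. The capitals mark GNAAC, a stretch of 5 letters of the X box, and TGATTGG, the Y box bound by NF-Y.
H2-Aa, chr17:34287852-34287919, minus strand: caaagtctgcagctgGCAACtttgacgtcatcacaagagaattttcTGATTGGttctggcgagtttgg
H2-Eb1, chr17:34305761-34305827, plus strand: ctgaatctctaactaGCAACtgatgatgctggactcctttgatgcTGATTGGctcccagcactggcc
H2-DMb1, chr17:34153082-34153149, plus strand: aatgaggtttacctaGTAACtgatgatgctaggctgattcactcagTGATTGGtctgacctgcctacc
H2-Oa, chr17:34092288-34092355, plus strand: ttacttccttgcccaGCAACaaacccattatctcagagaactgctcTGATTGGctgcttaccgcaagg
H2-Ob, chr17:34238803-34238867, plus strand: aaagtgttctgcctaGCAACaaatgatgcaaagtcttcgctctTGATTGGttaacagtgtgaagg

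The distance from the first base of GNAAC to the first base of TGATTGG was 31 bases in H2-Aa, H2-DMb1 and H2-Oa, 30 in H2-Eb1 and 28 in H2-Ob. Both motifs in this order on one strand, with their first bases 20 to 45 bases apart, were found in 3 of the 4 genes with a promoter. The same search over all 32851 promoters found the pair in 0.715% of them, TGATTGG on either strand in 7.82% and GNAAC on either strand in 84.8%. Among the other class II chains, the pair was present in H2-Eb2, H2-Oa and H2-Ob, 3 of the 4 genes with a promoter. It was in none of 18 class I presentation genes, although 8 of those held TGATTGG. The 2 promoters listed for H2-DMa did not hold the pair. For H2-DMa and the class I genes alike, the absence says only that these letters at this spacing are not in these windows. The letters and the spacing were chosen after these promoters had been read, so the counts are a description.

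Trim28, which encodes KAP1, was first checked against the labels. Its probe ILMN_1227225 gave 131 to 207 in the KO samples and 395 to 740 in the WT samples, 3.28-fold lower in KO (limma adjusted p = 0.0085). Each array held 12143 to 12199 probes above the floor. The KO array A8 differed from the rest, since its correlation with the other arrays of its group averaged 0.894, while that of every other array was 0.934 or more. In A8, 103 probes were at the floor while all other arrays held at least 100, and no other array had such a probe. Erythroid transcripts were bright, with Hba-a1 at 17869 to 27361 and the erythroid factor Klf1 at 2286 to 3381, although Epb42, a red cell membrane protein gene, was at the floor. The erythroid list (17 tested genes) averaged 11.20 ± 0.29 log2 intensity in KO and 11.48 ± 0.19 in WT (SD, n = 4). By representing probe 2 of its genes fell, Alas2, of heme synthesis, by 2.07-fold (limma adjusted p = 0.013) and the globin Hbb-b2 by 4.15-fold (limma adjusted p = 0.041). The globin Hbb-bt, named after its values were seen, fell 2.06-fold on probe ILMN_1235372 (limma adjusted p = 0.0178). Its representing probe was 1.09-fold lower (limma adjusted p = 0.667).

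All 7 class II genes had a lower mean in KO, and 1 of them, H2-Aa, passed the test. The fold differences of the representing probes, which are the tested probes of highest mean for each gene, lay between 1.62-fold and 2.38-fold lower in KO. On the log2 scale the median difference was -0.96, with a range of -1.25 to -0.70, while the median over all 7178 tested genes was 0.11. Of all tested genes, 41.7% had a lower mean in KO. The threshold was an adjusted p of 0.05 in limma over all 12259 probes, and 3.25% of tested genes and 3.11% of tested probes passed it on the lower side. At an unadjusted p of 0.05, all 7 genes were lower, against 9.92% of all tested genes. In 4 of the 7 genes every KO sample lay below every WT sample, against 7.38% of all tested genes. By probe, the same held for 7 of 12, against 7.31% of all tested probes. All 12 probes had a lower mean, as 44.0% of all tested probes did, and 11 were lower at an unadjusted p of 0.05, against 10.4%. None of the 12 probes passed on the higher side, where 2.46% of all tested probes and 2.40% of tested genes did, and none was higher at an unadjusted p of 0.05 or with the p-values of the authors' deposited table. Since the genes were chosen with earlier results of these data known, these shares describe the genes and are no independent evidence. In sorted bulk samples, fewer cells of a class II-expressing type and less class II RNA per cell cannot be told apart.

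**Figure D1:**
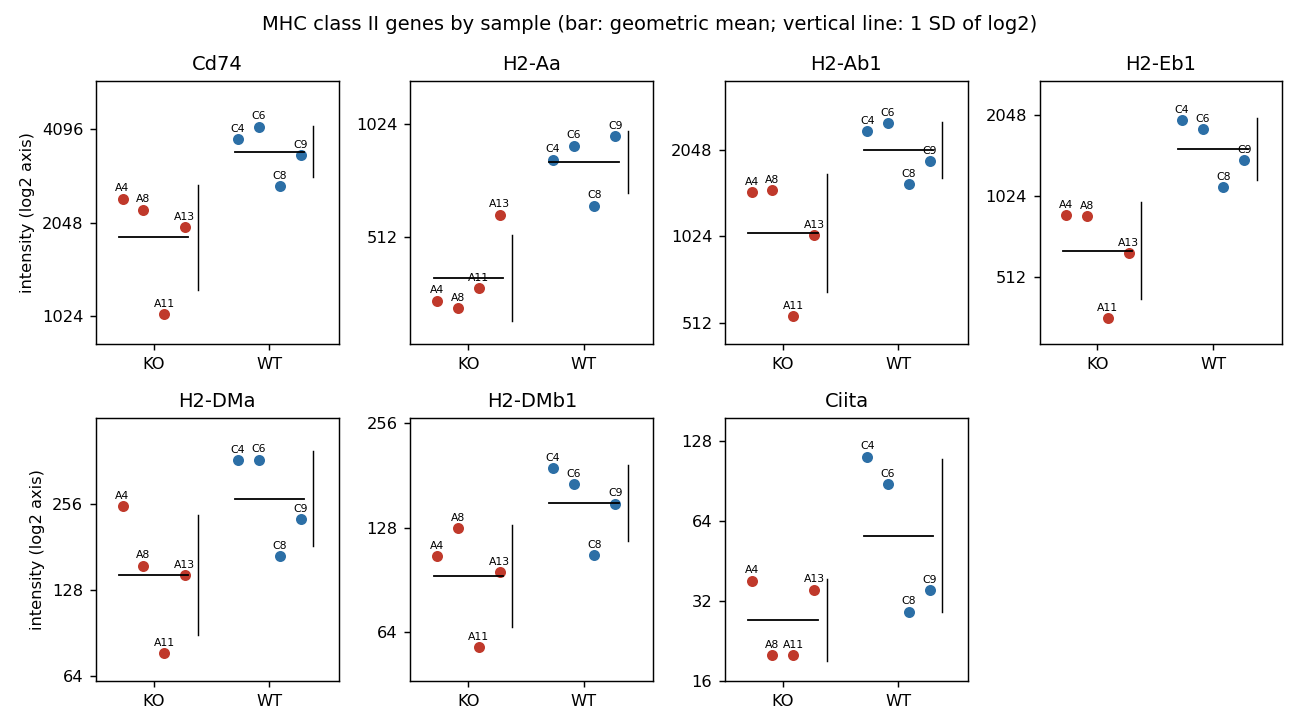
Intensity of the representing probe of each of the 7 class II genes in every sample, on a log2 axis, with KO samples in red and WT samples in blue. Horizontal bars are geometric means and vertical lines 1 SD of the log2 values (n = 4). The groups do not overlap for Cd74, H2-Aa, H2-Ab1 and H2-Eb1, and they overlap for H2-DMa, H2-DMb1 and Ciita.

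The alpha chain gene H2-Aa was the member that passed the test. Its single probe, ILMN_2734729, read 347 in A4, 331 in A8, 375 in A11 and 588 in A13 among the KO samples. Among the WT samples it read 824 in C4, 899 in C6, 621 in C8 and 954 in C9. A13 was the highest KO sample and still lay below C8, the lowest WT sample. The mean log2 intensity was 8.64 ± 0.38 in KO and 9.67 ± 0.27 in WT (SD, n = 4). H2-Aa thus fell by 1.03 on the log2 scale, 2.04-fold, with an SE of 0.24 and a 95% interval of -1.57 to -0.49 (limma adjusted p = 0.0425). The call was lost when A4, A8, A11, C4, C6 or C9 was left out, with limma adjusted p-values of 0.0591 to 0.112, and kept without A13 or C8.

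H2-Eb1, the beta chain gene of the H2-E molecule, had the largest fold difference among the representing probes. Its probe ILMN_1239102 read 864, 858, 359 and 628 in the KO samples and 1949, 1814, 1098 and 1389 in the WT samples, both in the order just used, as for all genes that follow. The groups did not overlap, and A11 was well below the other KO samples. The difference was 2.38-fold, -1.25 on the log2 scale with an SE of 0.32 and a 95% interval of -1.98 to -0.53 (limma adjusted p = 0.0567), just outside the threshold.

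H2-Ab1, the beta chain partner of H2-Aa, has 3 probes, and on each the mean was lower in KO. The representing probe ILMN_1226525 read 1457, 1485, 540 and 1033 in the KO samples and 2381, 2532, 1550 and 1864 in the WT samples. All KO samples lay below all WT samples, with A11 the lowest of them. The difference of this probe was 1.95-fold, -0.96 ± 0.34 on the log2 scale (SE, limma adjusted p = 0.126). Probe ILMN_2913716 did not overlap either, with 190 to 542 in KO and 552 to 1114 in WT, 2.21-fold (limma adjusted p = 0.0876). Probe ILMN_2631423 read 1176, 20, 439 and 801 in the KO samples and 842 to 2181 in the WT samples. There the groups overlap, and A8 was at the floor although it was the highest KO sample on the representing probe of the same gene. The 4.98-fold difference of this probe, -2.32 on the log2 scale (limma adjusted p = 0.233), became -1.01 without A8.

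Cd74 encodes the invariant chain, which blocks the peptide groove of new class II pairs and sorts them to the endosome. Its representing probe ILMN_1221817 read 2443, 2252, 1043 and 1979 in the KO samples and 3790, 4160, 2681 and 3370 in the WT samples. The highest KO sample, A4, lay below the lowest WT sample, C8, and A11 was again the lowest. The mean log2 intensity was 10.84 ± 0.56 in KO and 11.75 ± 0.27 in WT (SD, n = 4). The difference was 1.88-fold, -0.91 on the log2 scale with a 95% interval of -1.57 to -0.25 (limma adjusted p = 0.101). A second bright probe, ILMN_3089584, gave nearly the same size, 1.92-fold (limma adjusted p = 0.0836), with KO samples at 1004 to 2230 and WT samples at 2516 to 3800. The dimmer probe ILMN_1247832 read 140, 20, 59.4 and 108 in KO and 130 to 254 in WT. Its groups overlap and A8 is at the floor, and its log2 difference of -1.62 (limma adjusted p = 0.117) was -1.05 without A8.

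H2-DMa and H2-DMb1 encode the alpha and beta chains of H2-DM, the molecule that exchanges the invariant chain fragment for other peptides. The representing probe of H2-DMa, ILMN_2866856, read 251, 156, 77.0 and 144 in the KO samples and 365, 365, 168 and 227 in the WT samples. The groups overlap, because A4 lay above C8 and C9. The difference was 1.85-fold, -0.89 ± 0.39 on the log2 scale (SE, limma adjusted p = 0.196), and -0.58 without A11. The other probe of H2-DMa, ILMN_2777769, did not overlap, with 75.1 to 165 in KO and 180 to 240 in WT, 1.77-fold (limma adjusted p = 0.0966). H2-DMb1 (ILMN_1244977) read 106, 128, 57.8 and 95.5 in the KO samples and 190, 171, 106 and 150 in the WT samples. Its overlap came from A8, which lay above C8, and the difference was 1.62-fold, -0.70 on the log2 scale with a 95% interval of -1.35 to -0.05 (limma adjusted p = 0.173).

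Ciita encodes the coactivator that switches class II genes on and sets their level. Its tested probe ILMN_2678211 was dim, at 38.2, 20, 20 and 35.3 in the KO samples and 112, 88.5, 29.2 and 35.1 in the WT samples. C4 and C6 were high, while C8 and C9 lay within the range of the KO samples, of which A8 and A11 were at the floor. The measured difference of 2.08-fold (-1.06 ± 0.46 on the log2 scale, SE, limma adjusted p = 0.196) may be understated by those floor values. The other Ciita probe, ILMN_2568407, was at the floor in all 8 samples and was the 1 probe left untested.

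**Figure D2:**
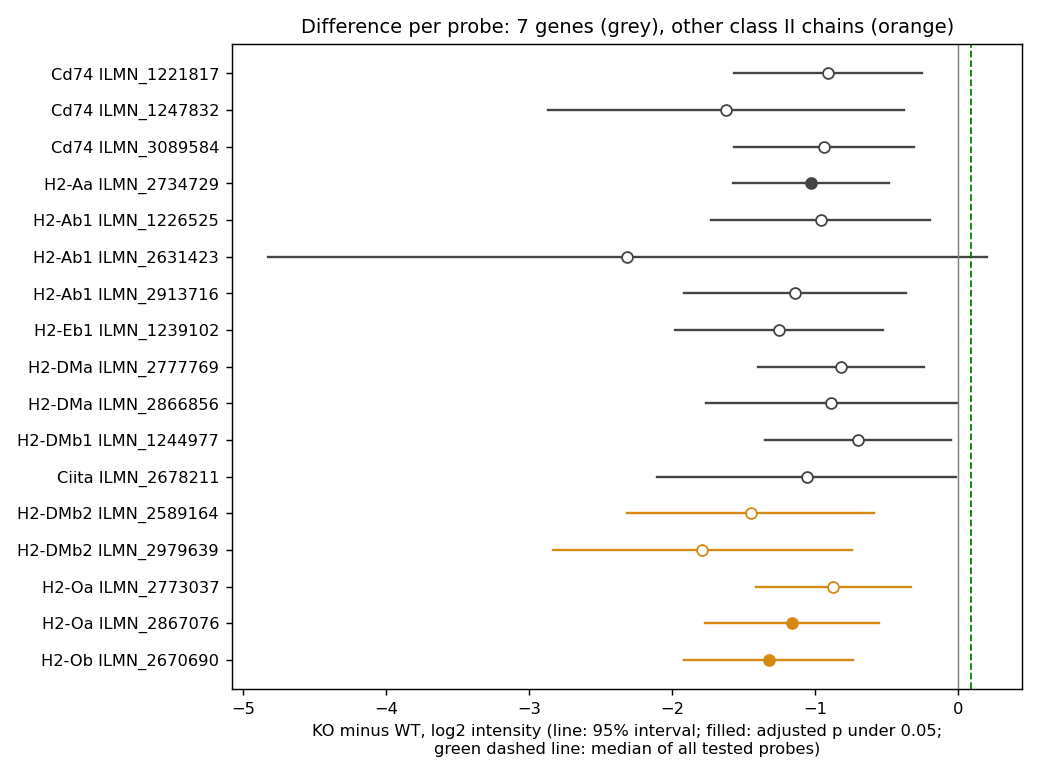
KO minus WT on the log2 scale for each of the 12 tested probes of the 7 genes (grey) and for the tested probes of H2-DMb2, H2-Oa and H2-Ob (orange), with 95% intervals from limma as lines. Filled points passed the adjusted threshold, and the dashed line is the median of all tested probes. The grey points all lie below 0, 11 of their 12 intervals exclude 0, and the widest belongs to the H2-Ab1 probe on which A8 was at the floor.

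The 12 probes ordered the WT samples much alike, and the KO samples less so. C8 was the lowest WT sample on 12 of 12 probes, and C6 was the highest on 8, C4 on 3 and C9 on 1. Among the KO samples, A11 was the lowest on 8 probes, tied with A8 at the floor for Ciita, and A4 was the highest on 9. On H2-Aa, A8 was the lowest KO sample, and A13 and C9 were the highest in their groups. The mean log2 intensity over the 7 representing probes was 8.56, 8.34, 7.51 and 8.34 in the KO samples and 9.52, 9.48, 8.62 and 9.02 in the WT samples. The groups did not overlap, but A4 and C8, at 8.56 and 8.62, nearly met. The difference of the group means of this level was -0.97, beside a pooled SD within groups of 0.44.

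Each gene was also set against the mean of the other 6 over the 8 samples, as a description of how far they moved together. The Pearson correlation was 0.97 for Cd74 and H2-Eb1, 0.95 for H2-Ab1 and H2-DMa, 0.94 for H2-DMb1, 0.82 for Ciita and 0.71 for H2-Aa. The samples share the split into KO and WT, so the group means were then subtracted. The correlation stayed at 0.89 or above for 5 genes, was 0.68 for Ciita and dropped to 0.19 for H2-Aa. H2-Aa therefore followed the other genes between the groups more than within them. A11, the lowest KO sample for its partner H2-Ab1, was the second highest for H2-Aa.

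**Figure D3:**
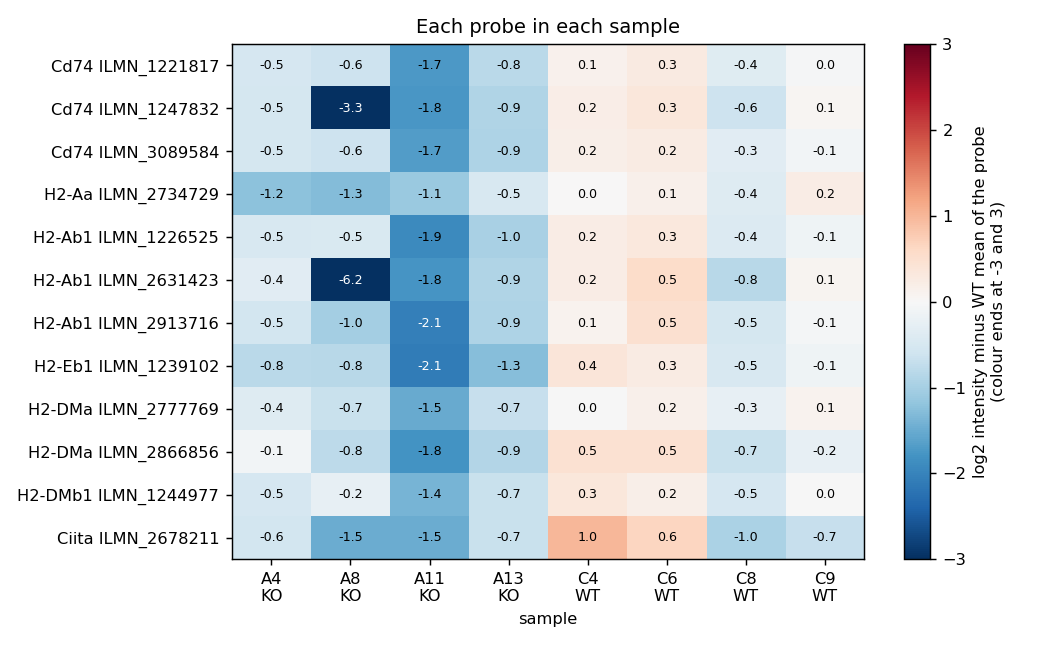
Log2 intensity of each sample minus the WT mean of the same probe, for the 12 tested class II probes in rows and the 8 samples in columns. Every KO value is below 0, A11 is the lowest KO sample on most probes, C8 is below 0 on every probe, and A8 has the lowest values of all on the H2-Ab1 and Cd74 probes where it was at the floor.

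The other class II chains were measured by 5 further genes, of which 3 were tested, all 3 had a lower mean in KO and 1 fell, with a median log2 difference of -1.32. H2-Ob, the beta chain of the H2-DM inhibitor H2-O, read 46.3 to 74.5 in the KO samples and 106 to 217 in the WT samples. The groups were well apart, and H2-Ob fell by 1.32 on the log2 scale, 2.51-fold (limma adjusted p = 0.023). Without A4, A11, A13, C4 or C9 its limma adjusted p was 0.0518 to 0.0721.

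The H2-Oa alpha chain gave 28.8 to 52.0 in KO and 57.0 to 89.6 in WT on its representing probe ILMN_2773037, 1.83-fold lower without overlap (limma adjusted p = 0.0679). Its second probe, ILMN_2867076, passed the test at 2.23-fold lower (limma adjusted p = 0.042), with 20 to 36.1 in KO and 43.5 to 82.6 in WT. H2-DMb2, a second H2-DM beta chain gene, was 2.73-fold lower (limma adjusted p = 0.062), with 62.9 to 173 in KO and 145 to 338 in WT. These H2-Oa and H2-DMb2 values are given after they were seen. H2-DMb1 and H2-DMb2 are close copies, so their probes may share signal. H2-Ea, which RefSeq lists as a transcribed pseudogene in the reference strain, was at the floor in all samples, and H2-Eb2 was not above the floor often enough to be tested.

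The wider pathway was mixed in direction. Of the 29 tested pathway genes that are not among the 7, the other chains included, 19 had a lower mean in KO, 3 fell and 0 rose in limma, and the median log2 difference was -0.18. At an unadjusted p of 0.05, 9 were lower and 3 higher. With the p-values of the authors' deposited table adjusted in the same way, none of the 29 passed.

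Of the 9 tested genes of endosomal processing, Ctsb alone passed the test. Ctsb, the gene of the lysosomal protease cathepsin B, read 5105, 4835, 7148 and 6372 in the KO samples and 9255, 9626, 11791 and 9742 in the WT samples. It fell 1.74-fold without overlap (limma adjusted p = 0.048), and leaving out any 1 sample gave 0.0536 to 0.110. The median log2 difference of the list was 0.41, opposite in sign to that of the 7 class II genes. The 3 genes that were higher at an unadjusted p of 0.05, Cd63, Lamp1 and Ctsz, are named after their values were seen. The endosomal tetraspanin Cd63 was at 341 to 1080 in KO and 137 to 432 in WT, 2.25-fold higher (unadjusted p = 0.0292 in limma), on the brightest of its 3 tested probes. The other Cd63 probes did not show this difference, at 1.23-fold higher and 1.01-fold lower (unadjusted p = 0.386 and 0.97 in limma).

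The factors that bind class II promoters and the ligases that turn over surface class II showed no call, with 0 of 6 tested genes past the limma threshold and 0 at an unadjusted p of 0.05, both in limma and in the authors' deposited table. The median log2 difference of the list was 0.11. Marchf1, a ubiquitin ligase for class II molecules, was 1.46-fold higher (limma adjusted p = 0.296), and the NF-Y subunit gene Nfyb 1.18-fold higher (limma adjusted p = 0.55). Rfx5 and Rfxank, subunits of the X box factor RFX, were at the floor in all samples.

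Among 11 tested genes of the signals and factors that induce Ciita, all 11 had a lower mean in KO and 1 fell, with a median log2 difference of -0.30. Spib, an ETS factor of B cells and plasmacytoid dendritic cells, read 44.4, 23.6, 20 and 43.5 in the KO samples and 121, 69.4, 102 and 60.7 in the WT samples. It fell 2.75-fold without overlap (limma adjusted p = 0.042), and its adjusted p was 0.052 to 0.113 without any 1 sample other than C6. Of 6 tested genes of co-stimulation and partners, 0 passed in limma, 1 was lower at an unadjusted p of 0.05, and 0 passed with the authors' deposited p-values. That one was Cd40, a receptor for T cell help, at 1.91-fold lower (limma adjusted p = 0.165), while the Cd74 ligand gene Mif was 1.43-fold higher (limma adjusted p = 0.264).

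MHC class I presentation, which nearly all nucleated cells use for peptides from the cytosol, was spread on both sides of 0. Of 16 tested genes 8 had a lower mean in KO, 0 passed in limma or with the authors' deposited p-values, 1 was lower at an unadjusted p of 0.05, and the median log2 difference was -0.03. The gene of the class I light chain, B2m, was 1.09-fold higher (limma adjusted p = 0.762). Psmb10, an immunoproteasome subunit, was 1.45-fold lower (limma adjusted p = 0.195), while its second probe was 1.08-fold lower. Psmb8, another, was 2.55-fold lower with A8 at the floor (limma adjusted p = 0.339). That log2 difference of -1.35 was -0.39 without A8, and the second Psmb8 probe was 1.70-fold lower (unadjusted p = 0.0222 in limma). The second Psme1 probe, named after its value was seen, was 1.46-fold higher without overlap (unadjusted p = 0.0270 in limma). The representing probe of Psme1 was 1.14-fold higher (limma adjusted p = 0.614). The mean level of the class II genes minus that of the class I genes, within each sample on the log2 scale, was 0.314, 0.604, -0.573 and 0.102 in the KO samples and 1.21, 0.996, 0.912 and 0.862 in the WT samples. The groups of this difference did not overlap, and their means differed by -0.88.

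Markers of B cells also had lower means in KO. Of 16 tested B cell genes, all 16 had a lower mean in KO, 12 were lower at an unadjusted p of 0.05 in limma, 2 fell and the median log2 difference was -1.26. With the authors' deposited p-values adjusted in the same way, 0 of the 16 passed, and 9 were lower at their unadjusted p of 0.05. Every KO sample lay below every WT sample for 6 of the 16. Their mean log2 intensity was 6.74, 6.16, 5.74 and 6.49 in the KO samples and 8.22, 7.43, 7.35 and 6.84 in the WT samples. The groups did not overlap, and A11 was the lowest KO sample here too. The lowest WT sample was C9, whereas C8 was the lowest on all 12 class II probes. Pax5 and Cr2 were at the floor. Fcmr, an IgM Fc receptor, read 313, 197, 212 and 315 in KO and 1002, 905, 535 and 682 in WT, and fell by 1.58 on the log2 scale (limma adjusted p = 0.012). Ralgps2, an exchange factor for Ral, fell 2.54-fold (limma adjusted p = 0.043) and lost its call in 6 of the fits that left out 1 sample, at 0.0627 to 0.121.

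The class II level minus the B cell level was 1.77 to 2.19 in the KO samples and 1.27 to 2.17 in the WT samples on the log2 scale. These ranges overlap, with means of 1.90 ± 0.19 and 1.70 ± 0.48 (SD, n = 4). The part of B lineage RNA in the class II difference was not tested. Both calls of the B cell list were of genes also listed for mature B cells, where 4 of 4 tested genes had a lower mean and the level was 5.95 ± 0.34 in KO and 7.30 ± 0.57 in WT. With the authors' deposited p-values, 0 of these 4 passed after adjustment and 4 were lower at an unadjusted p of 0.05. Among pro-B and pre-B cell genes 0 of 5 passed in limma or with the authors' deposited p-values, 3 were lower at an unadjusted p of 0.05 and the median was -1.10, with Ebf1 2.14-fold lower (limma adjusted p = 0.066), Vpreb1 2.25-fold lower (limma adjusted p = 0.156) and Dntt and Rag2 at the floor. Of 2 tested plasma cell genes 0 passed in limma or with the authors' deposited p-values and 1, Irf4, was lower at an unadjusted p of 0.05. Irf4 was 2.19-fold lower (limma adjusted p = 0.172) and Xbp1 1.16-fold higher (limma adjusted p = 0.566).

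The other antigen-presenting cell types gave less to compare. Of 15 dendritic cell markers on the array, 8 were at the floor in all samples, among them Itgax, Flt3, Batf3 and Xcr1, and 4 were tested. Some untested markers had values above the floor and are named after these were seen. Clec9a probe ILMN_2929768 read 20 in all KO samples and 20 to 53.9 in WT. Zbtb46 probe ILMN_2619179 read 20 to 29.8 in KO and 20 in all WT samples. Zbtb46 probes ILMN_1256314 and ILMN_2545424 went the other way. Both read 20 in all KO samples and were above it in WT only in C9, at 22.7, and in C6, at 32.1, respectively. Ccr7 read 20 in all KO samples and 20 to 39.3 in WT. None of the 4 passed in limma or with the authors' deposited p-values, and 2 were lower at an unadjusted p of 0.05, namely Tcf4 at 1.85-fold (limma adjusted p = 0.117) and Bst2 at 1.55-fold (limma adjusted p = 0.127). Their mean level was 5.41 ± 0.16 log2 intensity in KO and 5.89 ± 0.28 in WT (SD, n = 4), and its part in the result was not tested.

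Monocyte and macrophage markers averaged 7.70 ± 0.57 log2 intensity in KO and 7.72 ± 0.25 in WT (SD, n = 4). By representing probe, 5 of 12 tested genes had a lower mean, with a median log2 difference of 0.03. Of these 12, 0 passed in limma, at an unadjusted p of 0.05 or with the authors' deposited p-values. Lyz2 was 3.02-fold lower (limma adjusted p = 0.404), with A8 at 96.0, and 1.35-fold lower on its second tested probe. Vcam1 was 1.31-fold higher (limma adjusted p = 0.405). A second Adgre1 probe, named after its value was seen, was 1.85-fold higher (unadjusted p = 0.0223 in limma). The class II level minus the monocyte and macrophage level was 0.21 to 1.01 in KO and 1.20 to 1.82 in WT. The means of this difference lay -0.95 apart, beside -0.97 for the class II level itself. Of 5 tested T and NK cell genes 1 fell, the adhesion receptor gene Cd2, by 3.26-fold (limma adjusted p = 0.013). With the authors' deposited p-values, 0 of the 5 passed after adjustment and 1 was lower at an unadjusted p of 0.05. At an unadjusted p of 0.05 in limma, 2 of the 5 were lower and 1 was higher. The higher one, named after its value was seen, was the cytotoxic granule gene Nkg7, at 3.11-fold (unadjusted p = 0.0391 in limma).

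**Figure D4:**
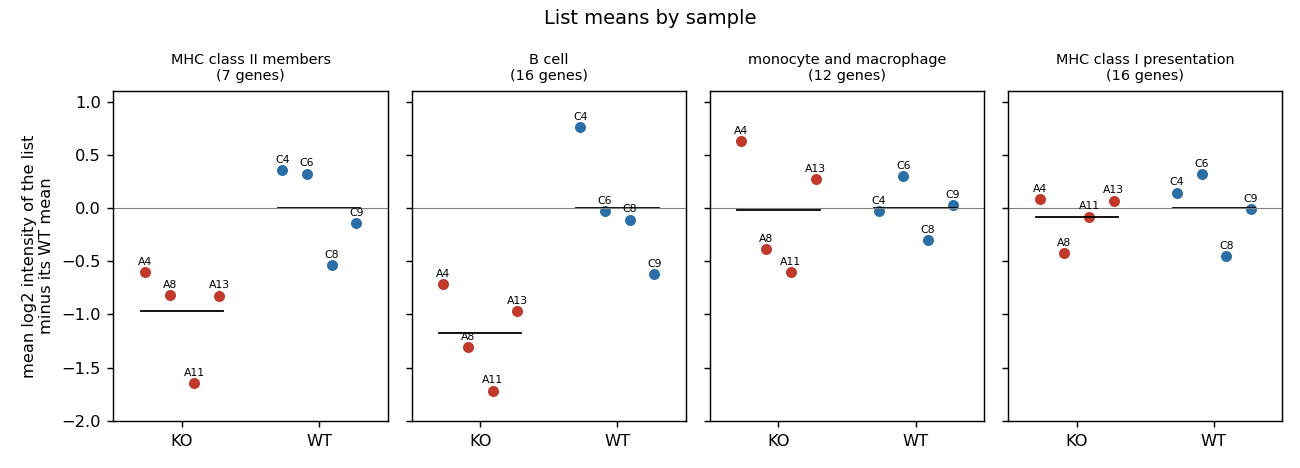
Mean log2 intensity of 4 gene lists in every sample, each list shown relative to its own WT mean, with the horizontal bar at the group mean. The class II genes and the B cell markers are lower in all KO samples, while the KO and WT samples overlap for monocyte and macrophage markers and for class I presentation.

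Without A8, the array that stood apart, all 12 class II probes still had a lower mean in KO, as 5480 of all 12259 tested probes did. Of the 12, 8 did not overlap, against 9.16% of all tested probes in the same samples. However, 0 of the 12 passed in limma, while 317 of the 12259 passed on the lower side. At an unadjusted p of 0.05 in limma, 10 of the 12 were lower, against 1230 of the 12259. The median log2 difference of the 7 genes was then -0.94. The B cell markers without A8 kept 16 of 16 lower and 2 calls, with a median of -1.27, and the class I genes had a median of -0.02.

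The genes most like the 7 in their pattern over the 8 samples were found by Pearson correlation with the mean of the 7 representing probes, among all other tested genes. The 8 highest were Gpr18 at 0.978, H2-Oa at 0.971, Hibadh at 0.965, St6gal1 at 0.962, Icam2 at 0.961, Ly86 at 0.958, Ifi27l2a at 0.957 and Fgd2 at 0.949. These points share the split into KO and WT, so a high value needs no more than a lower level in KO with A11 and C8 low in their groups. Gpr18 was at the floor in A11. St6gal1, a sialyltransferase, read 150, 120, 83.0 and 119 in the KO samples and 433, 363, 225 and 228 in the WT samples. It fell 2.59-fold without overlap (limma adjusted p = 0.0277), though its adjusted p was 0.0743 to 0.0771 without A11, A13 or C4. The other 7 were 1.49-fold to 2.49-fold lower and did not pass, with limma adjusted p-values of 0.0524 to 0.164.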

How the data were processed

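The submitters' processing notes name BeadStudio 3.1.3 for the deposited intensity values, which are linear. The sources used here do not state its background and normalization settings. The authors' deposited table holds a signed fold score and a p-value for KO against WT, used as an alternative. The size of that fold is the ratio of geometric means for all 45281 probes (relative tolerance 0.0001). A table of signals before normalization has 8 columns whose names match no sample label, and these were not used.

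Intensities were converted to log2. The test of KO against WT was limma 3.58.1 (lmFit, eBayes; R 4.3.3) over the 12259 probes above the floor of 20 on at least 4 of 8 arrays, with no covariate. Benjamini-Hochberg adjustment covered all of these probes. Fold changes are ratios of geometric means, and SE and intervals are those of the moderated fit. The script was tested on simulated data. Probes were named from the array annotation, which gives 34885 probes a single gene, 18 several genes and 10378 no gene, with 34807 matched to RefSeq by Entrez identifier. RefSeq coordinates apply only to the printed promoters.

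The members and gene lists were chosen with earlier results of these data known. Named were all member probes, genes past the threshold from each list (at most 6, or 4 for marker lists, otherwise the 2 of smallest p), the 8 genes most like the members, and Trim28. Genes named outside this rule are described as seen first or serve as markers. The alternatives were 2 other filters on the floor, array weights, a trended and robust prior, an offset of 20, the authors' p-values and leaving out each sample. The counts of the gene lists without A8 were added after seeing the data. The number of arrays limits the precision.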

Additional observations from a re-analysis of the deposited data

How the results depend on the processing

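The class II probes kept a lower mean in KO under every alternative in which they were fitted, which was 9 of the 12 with only probes above the floor on all 8 arrays. The median log2 difference of the fitted genes stayed between -1.12 (without A4) and -0.64 (without A11). The number of class II probes past the threshold on the lower side, 1 in the reported fit, was 0 with no filter (8 at an unadjusted p of 0.05), 2 with only probes above the floor on all 8 arrays, 2 with array weights, 4 with a trended and robust prior, 2 with an offset of 20, 0 with the authors' deposited p-values adjusted in the same way (6 at an unadjusted p of 0.05), and 0 to 1 when 1 sample was left out. Over all probes the counts were 381 lower and 301 higher. They were 78 and 74 of 45281 probes with no filter, 702 and 836 with array weights, and 114 and 94 with the authors' deposited p-values. With a trended and robust prior they were 424 and 425, and with an offset of 20 they were 395 and 333. Of the 7630 probes above the floor on all 8 arrays, 321 were lower and 171 higher. At an unadjusted p of 0.05, 1196 of all probes were lower with no filter and 930 with the authors' deposited p-values. When 1 sample was left out, the counts past the threshold ranged from 162 to 586 lower and from 91 to 557 higher, with the highest of both without C6.

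H2-Eb1 also passed under 4 settings without a block, with limma adjusted p-values of 0.049 with only probes above the floor on all 8 arrays, 0.0203 with array weights, 0.0249 with a trended and robust prior and 0.0453 with an offset of 20. Over all its alternatives they ranged from 0.0203 to 0.376. H2-Aa ranged from 0.0179 to 0.235. Of the named genes, 2 changed sign. Akr1b10, at 0.11 on the log2 scale, was at -0.033 with array weights, -0.12 without A4, -0.020 without A8 and -0.28 without C8, and at most 0.53, without A11. Laptm5, at 0.08, was at -0.013 with array weights, -0.026 without A4 and -0.11 without C8, and at most 0.24, without A11. The cause of these changes was not tested. The numbers 4 and 8 occur in the sample codes of both groups, and no label says that they pair samples. The deviations of same-numbered samples from their group means correlated at 0.26 (number 4) and 0.22 (number 8) over the tested probes. With the number as a random replicate block, a setting added after seeing the data, 551 probes were lower, 537 were higher, and 2 class II probes were lower, H2-Aa and H2-Eb1 (limma adjusted p = 0.0257 and 0.043), with a median log2 difference of -0.90. Values at the floor have no order and limit what can be said of Ciita, of Akr1b10 and of A8.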

Other observations

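Within the groups, other genes varied over the samples much as the mean of the class II genes did, though not always in the same order. After the group means were subtracted, the highest Pearson correlations with the mean of the 7 genes over the 8 samples were those of Akr1b10 at 0.989, Macroh2a1 at 0.987, Imp3 at 0.973, Gm21992 at 0.966, Napsa at 0.965, Dusp7 at 0.965, Laptm5 at 0.961 and Myh9 at 0.957. Most of these did not separate KO from WT. Akr1b10 was at the floor in A11 and C8, and Dusp7 in C8, so their correlations rest in part on floor values. Laptm5, a lysosomal membrane protein gene of blood cells, read 4934 in A4, 4452 in A8, 2853 in A11 and 4025 in A13 among the KO samples, and 4296 in C4, 4987 in C6, 2588 in C8 and 3678 in C9 among the WT samples, with A11 and C8 the lowest in their groups. Gm21992 was the exception and rose 1.99-fold in KO (limma adjusted p = 0.0405), with 41.7 to 73.2 in KO and 23.7 to 35.0 in WT. None of the 8 was chosen with a test, and 8 samples allow many such correlations.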
